A study of Rattus norvegicus with 20 samples.

Results

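Long CpG islands were taken from a rat CpG island array as autosomal runs of neighbouring probes, each probe starting at most 500 bases after the one before, with 15 or more probes in a run. This rule used positions (rat genome build rn4) and no measured value, and it found 425 long runs among 15799 autosomal runs, which is 2.69%. A further 14 runs of that length on chromosome X were left out by the rule. The array compared DNA bound by a methyl-CpG binding domain protein, labelled with Cy5, with unbound input DNA of the same tissue, labelled with Cy3. Samples were 4 normal mammary glands and 16 mammary carcinomas labelled as induced by radiation, all from female F1 hybrids of Sprague-Dawley and Copenhagen rats. The shared treatment note gives untreated rats and rats given whole-body 137Cs gamma rays (4 Gy at a rate of 0.5 Gy/min when 7 weeks old), and the labels do not say whether the normal glands came from irradiated rats or how old any animal was at sampling. The labels also do not say whether each tissue came from a separate animal, so that the spread between samples may be technical in part. Whole tissue was used, and a lower ratio in all cells cannot be told apart from a mixture of cells with high and low methylation. The arrays measured DNA alone, so the labelled tissue was not checked against its markers here.

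CpG islands are stretches of DNA rich in CG pairs that often lie over the start of a gene. In normal tissue most of them are kept free of methylation, while the DNA on their flanks, the shores, usually carries it. In tumours many islands acquire methylation, and regions that are normally methylated can lose it. A long island has room for a boundary between a methylated flank and an unmethylated core, which is why the ends of each run were set against its centre.

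The long runs held 15 to 63 probes (median 18) and spanned 861 to 6365 bases (median 1928). They carried 8232 probes, 8111 of them with usable input signal, or 9.21% of all autosomal probes. Probe starts lay a median of 90 bases apart, and 17.9% of neighbouring probes started under 45 bases apart and so covered some of the same sequence. Probes within a run are therefore not independent readings. Long runs were present on all 20 autosomes, from 1.46% of the runs of chromosome 5 to 4.07% of those of chromosome 16. Of the 425, 96 had exactly 15 probes, while 123 runs had 14 and fell just outside the rule. No sequence or gene is named because no reference of this build was used here.

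Values are log2 of the Cy5 over the Cy3 signal with the median of each array set to 0, so a higher value means more DNA bound by the methyl-CpG binding protein. The share of methylated CG pairs was not measured. Runs or ends called methylated or unmethylated below are those of high or low bound signal. The outer part of a run is the 3 probes at each end and the central part is all other probes. Because the arrays did not share one range, each value was also placed on a linear scale from 0, the level shared by most runs of that array, to 1, the level of the highly methylated runs. That upper level was 4.69 ± 0.84 on the log2 scale in normal glands (SD, n = 4) and 2.72 ± 0.49 in carcinomas (SD, n = 16), so strongly methylated runs lie lower on the log2 scale in the carcinomas before any change at a single run. The upper level ran from 3.91 to 5.87 in normal glands and from 1.99 to 3.61 in carcinomas, so all carcinomas lay below all normal glands by amounts that varied widely. Normal gland 1 stood apart with an upper level of 5.87. No slide held both groups, so slide and group cannot be told apart. The 4 normal glands were scanned on days 2 and 3, 2 on each, and the carcinomas on days 1, 2 and 3 (2, 6 and 8). The sample codes of carcinomas 7 and 8 differed between 2 of the deposited labels, so counts of changes called by limma are also given without them. Shares and gains on the linear scale are given with all 16 carcinomas only.

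Ends and centres of the long runs had nearly the same mean level in normal glands. The mean outer minus central difference over the 425 runs was -0.07, 0.05, 0.02 and -0.05 in normal glands 1 to 4. It was 0.08 ± 0.04 in the carcinomas, from 0.01 to 0.15, and 11 of 16 carcinomas lay above every normal gland. The remaining 5 carcinomas overlapped the normal range. Within scan day 2 the mean was 0.04 in the 2 normal glands and 0.06 in the 6 carcinomas, and within scan day 3 it was -0.06 in the 2 normal glands and 0.07 in the 8 carcinomas. Between groups scanned on the same day, the gap was thus wider within day 3. The 2 carcinomas of scan day 1 had the highest mean of any day, 0.14, with no normal gland scanned that day. On the linear scale the means lay close to 0 in both groups, at -0.008 ± 0.005 in normal glands and 0.003 ± 0.012 in carcinomas.

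Runs of 9 to 14 probes showed another pattern. Their mean outer minus central difference was -0.23 ± 0.04 in normal glands and -0.03 ± 0.08 in carcinomas, where all 16 lay above every normal gland. On the linear scale these means were -0.017 ± 0.002 and -0.013 ± 0.011, with 8 carcinomas above and 4 below every normal gland. On the log2 scale the difference was higher in the long runs on all 4 normal arrays, by 0.22 ± 0.02, and on all 16 carcinoma arrays, by 0.11 ± 0.04. Near the threshold the mean in normal glands was -0.18 for runs of 13 probes, -0.25 for 14, -0.09 for 15 and -0.14 for 16. The largest change among these lay between 14 and 15 probes, and the mean did not rise steadily with each added probe. Runs of 20 or more probes (138 runs) had means of 0.10 in normal glands and 0.12 in carcinomas, so the balance of ends over centres moved with length inside the long class too. The outer and central probes of long runs had similar input signal in normal glands (mean log2 Cy3 10.25 and 10.34), and the enriched channel was above background for 82.7% of outer and 84.1% of central values. In runs of 9 to 14 probes those shares were 77.5% and 85.9%, a wider gap in the same direction as the lower ends, and its part in the result was not tested.

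**Figure D1:**
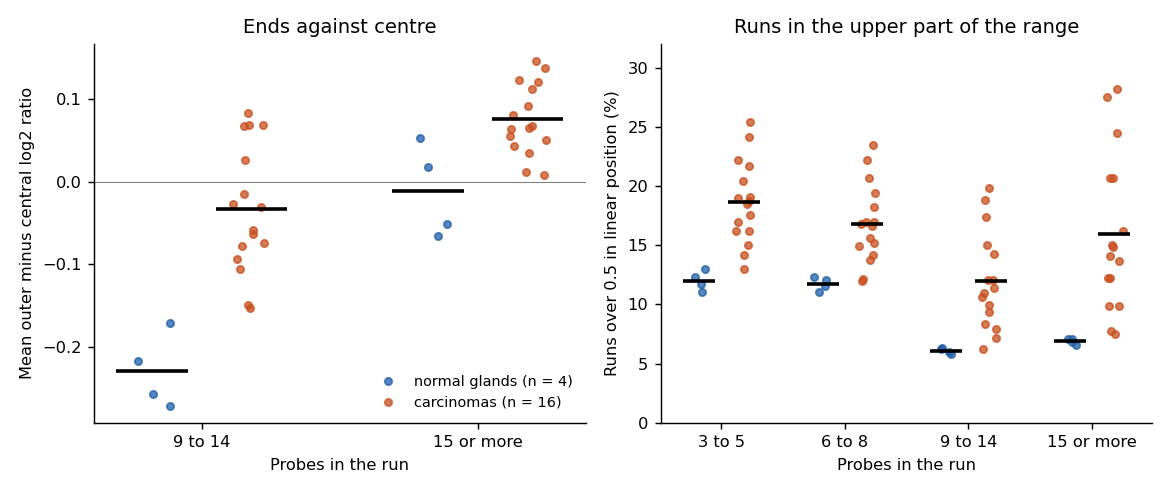
Each point is 1 array; the left panel plots the mean outer minus central log2 ratio of runs of 9 to 14 and of 15 or more probes, the right panel the percent of runs over 0.5 in linear position by run length, and black bars are group means. In the long runs 11 of 16 carcinomas lie above every normal gland on the left, and all 16 do on the right.

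Distance from the run end gave a finer picture. In normal glands the outermost 100 bases of long runs had a mean log2 ratio of 0.42 ± 0.15, the next 100 bases 0.70 ± 0.17, and the level was still 0.74 ± 0.20 between 300 and 400 bases from the end. It then fell to 0.34 ± 0.18 between 700 and 800 bases. Carcinomas had 0.47 ± 0.12 in the outermost 100 bases, 0.56 ± 0.15 in the next, and 0.32 ± 0.16 at 700 to 800 bases. Means were thus highest some distance inside the end in both groups. The outermost probe minus the 5th probe was -0.24 ± 0.09 in normal glands on the log2 scale (SD over 4 arrays), and -0.014 ± 0.0062 on the linear scale. In carcinomas the same log2 difference was -0.0042 ± 0.094 over 16 arrays, a mean within the spread between arrays; whether the groups differ in it was not tested. Bins far from an end hold only the longer runs, so the fall toward the centre also compares different runs.

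**Figure D2:**
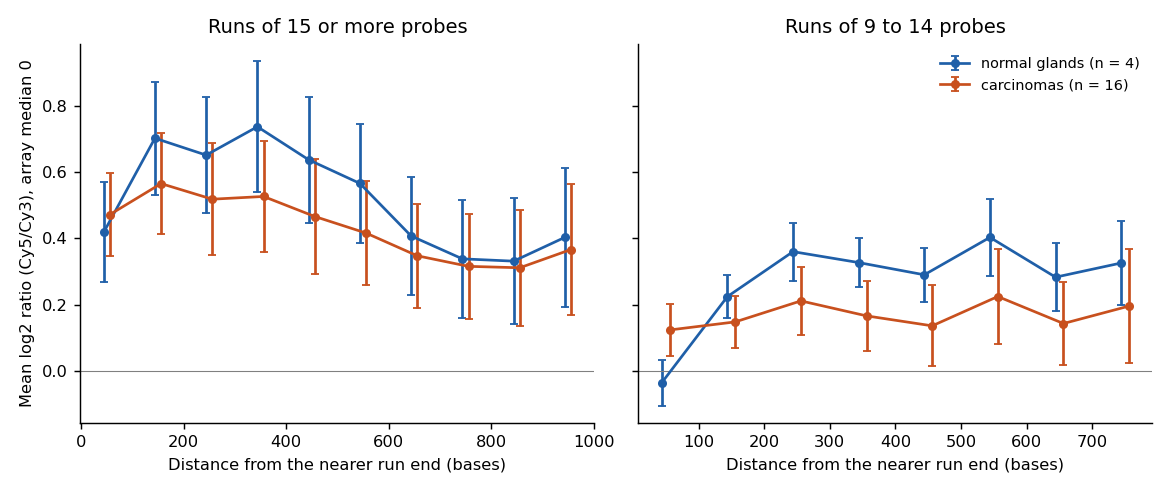
Mean log2 ratio (Cy5/Cy3, array median 0) against the distance of a probe from the nearer end of its run in bins of 100 bases, for long runs and for runs of 9 to 14 probes; points are means over arrays, bars are SDs, and bins of few probes are not drawn. In long runs the level of both groups is highest between 100 and 400 bases from the end.

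A mean near 0 hid large differences of both signs in single runs. In normal glands 129 of the 425 long runs (30.4%) had higher ends than centre and 144 (33.9%) had lower ends by limma (adjusted p under 0.05), beside 21.0% and 42.8% of all 2637 runs tested. In carcinomas the ends were higher in 178 (41.9%) and lower in 138 (32.5%), beside 33.6% and 38.1% of all runs tested. The median outer minus central difference of the long runs was -0.03 in normal glands, beside -0.18 over all runs tested. In carcinomas those medians were 0.04 and -0.02. On the linear scale only 19 runs were called higher and 21 lower in normal glands (2.20% and 7.21% of all tested), while the counts in carcinomas moved by under 1.5 times. The difference between probes was wide along most runs: the highest probe mean exceeded the lowest by a median of 3.26 log2 units in normal glands and 1.99 in carcinomas, and by over 3 units in 239 and 71 of the 425 runs.

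The ends of 1 run often differed from each other. Tested one at a time in normal glands, both ends were higher than the centre in 43 long runs and both lower in 54. In 84 runs 1 end alone was higher, in 88 runs 1 end alone was lower, in 101 runs the ends went opposite ways, and in 55 neither end was called. Opposite ends thus made up 23.8% of long runs, beside 15.3% of the 2129 runs of 9 to 14 probes, and both ends were lower in 12.7% and 22.7%. A single higher end was found in 19.8% and 17.1%, and a single lower end in 20.7% and 25.2%. These shares were described and not tested. For the low-coordinate end 32.2% of long runs were called higher and 35.5% lower, beside 23.9% and 42.4% of all tested, and for the high-coordinate end 31.5% and 34.4%, beside 24.5% and 41.3%. Neither coordinate end therefore stood out over the other.

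In 23 of 425 long runs (5.41%) the mean of 1 end lay over 0.5 on the linear scale in normal glands and that of the other end under 0.2, a rule chosen after the values were seen. It held for 18 of 2129 runs of 9 to 14 probes (0.845%). A steep example is the 17-probe run chr3:159392719-159394794, with a low-coordinate end at -1.69 ± 0.51, a centre at -0.12 ± 0.38 and a high-coordinate end at 4.38 ± 0.75 in normal glands. Its carcinoma means kept that shape, at -1.24 ± 0.42, -0.44 ± 0.17 and 2.52 ± 0.49. The linear position of its methylated end was 0.80 in normal glands and 0.86 in carcinomas. The 29-probe run chr12:16820713-16823438 ran the other way, from 5.41 ± 0.98 through 1.58 ± 0.39 to -0.13 ± 0.20 in normal glands. The 41-probe run chr15:2351138-2356024 went from -0.70 ± 0.28 to 4.27 ± 0.92 over 4887 bases. In each of these the array showed a methylated and an unmethylated end inside 1 run in both tissues.

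The largest positive outer minus central differences in normal glands came from runs with 1 methylated end. The 22-probe run chr1:80893805-80896537 had differences of 3.11, 2.09, 2.62 and 2.17 in normal glands 1 to 4, and in carcinomas a lowest value of 1.16, a median of 1.50 and a highest of 2.28. Its low-coordinate end was at 3.63 ± 0.72 in normal glands while the centre was at -0.64 ± 0.06 and the other end at 0.10 ± 0.14. The mean difference in normal glands was 2.50 (SE 0.15, limma adjusted p = 3.46e-11). The 26-probe run chr16:69406502-69409834 was built the same way, with differences of 2.80, 2.19, 2.09 and 1.97 in the normal glands (mean 2.26) and a low-coordinate end at 4.25 ± 0.81 against a centre at 0.11 ± 0.13. The third was the 18-probe run chr7:9879359-9881563, with a mean difference of 1.92 and a low-coordinate end at 4.56 ± 0.79. The mean of both ends stayed above the centre in every carcinoma in all 3, with values from 0.86 to 2.28. In the chromosome 7 run the high-coordinate end itself lay under the centre, at -0.25 ± 0.31 against 0.24 ± 0.19 in normal glands and -0.40 ± 0.19 against -0.33 ± 0.15 in carcinomas.

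The largest negative differences were of 2 kinds. The 19-probe run chr16:20009469-20011670 was the only one of the 3 with both ends low: its ends were at -1.23 ± 0.40 and -0.81 ± 0.41 and its centre at 1.97 ± 0.88 in normal glands. Its differences were -3.76, -2.65, -2.87 and -2.69 in normal glands, and from -3.50 to -0.70 with a median of -2.69 in carcinomas. The groups overlapped, and the change was not called (0.60, SE 0.41, limma adjusted p = 0.266); on the linear scale its difference in normal glands was not called either (adjusted p = 0.61). The 47-probe run chr12:46721844-46727464 was low over its first 1.5 kb, with probe means from -0.44 to 1.25 in normal glands, and high over the rest of its 5621 bases. Probe means in normal glands reached from -0.44 to 6.11 along it, and in carcinomas from -0.72 to 3.45. Its low-coordinate end was at -0.17 ± 0.05 in normal glands and -0.39 ± 0.11 in carcinomas, and its other end at 3.89 ± 0.66 and 2.76 ± 0.48. The 18-probe run chr6:138190200-138191953 had the same step, with a first end at 1.09 ± 0.84 and a centre at 4.62 ± 0.88 in normal glands.

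**Figure D3:**
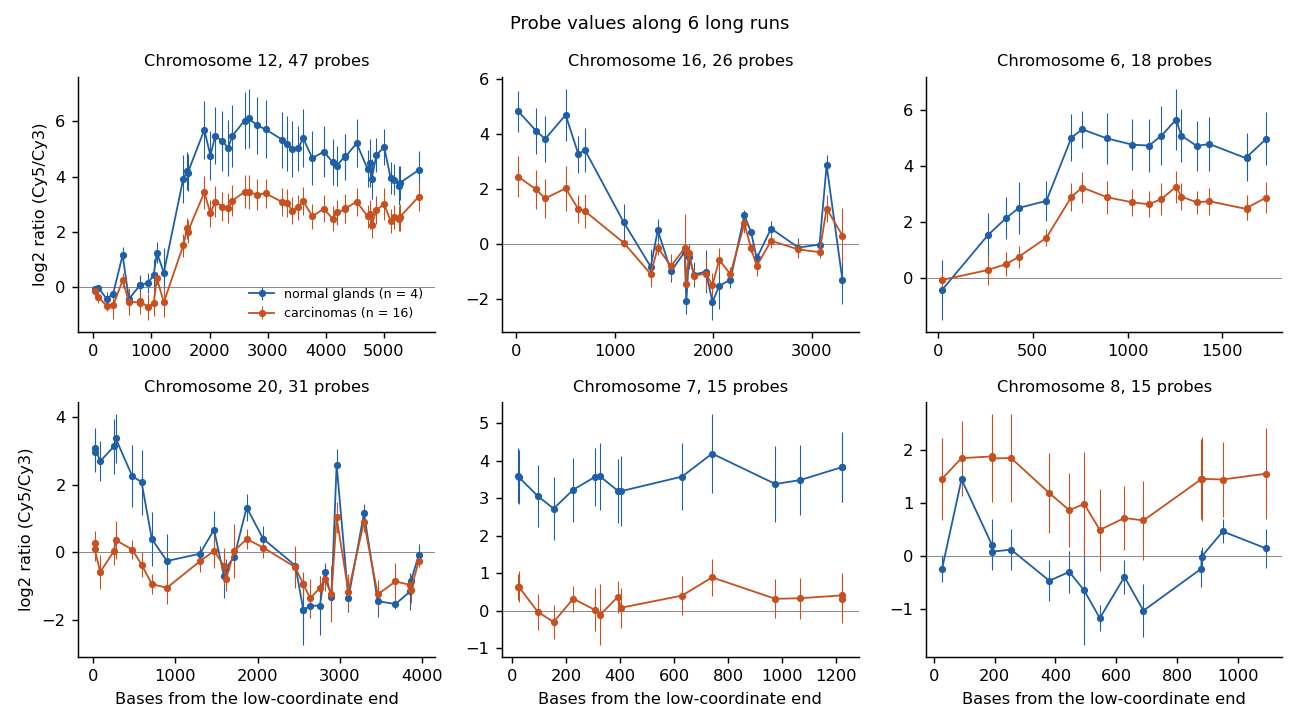
Mean log2 ratio of each probe (bars are SDs over 4 normal glands or 16 carcinomas) against its distance in bases from the low-coordinate end, for 6 of the long runs named in the text. The chromosome 12, 16, 6 and 20 runs change level along their length, the chromosome 7 run is low over its whole length in carcinomas, and the chromosome 8 run is higher there over its whole length.

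The outer minus central difference changed from normal gland to carcinoma in 131 long runs by limma at adjusted p under 0.05. It was higher in carcinomas in 86 (20.2%, beside 27.8% of all 2637 tested) and lower in 45 (10.6%, beside 6.41%). On the log2 scale most changes brought ends and centre closer. The 86 runs had a median difference of -0.69 in normal glands and -0.17 in carcinomas, and the 45 had medians of 0.93 and 0.26. These runs were picked by that same difference, and it was positive in normal glands in 2 of the 86 and 42 of the 45. The log2 range was also narrower in carcinomas (upper level 2.72, against 4.69 in normal glands), and its part in this was not tested. Over all 2637 runs tested, the outer level was called higher in 15.1% and lower in 16.8%, and the central level higher in 6.11% and lower in 24.7%. Among the 86, the outer level was called higher in 30 and lower in 11, and the central level higher in 2 and lower in 30. Among the 45, the outer level was called higher in 2 and lower in 20, and the central level higher in 11 and lower in 10. All 16 carcinomas lay outside the normal range in 23 of the 86 and in 9 of the 45.

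These counts depended on the scale and on the arrays. They were 39 and 11 on the linear scale (7.58% and 3.75% of all tested), 43 and 20 after quantile normalization between arrays (13.4% and 2.20%), 36 and 19 after loess within each array (9.90% and 6.03%), and 41 higher after normexp background correction (13.8%). Without normal gland 1 they were 51 and 25 (18.1% and 3.53%), within scan day 2 they were 1 and 1 (0.455% and 0.114%), and within scan day 3 they were 37 and 14 (13.9% and 2.09%). Over the 6 scalings tried, 2 runs were called higher and 2 lower every time, beside 0.341% and 0.152% of all runs tested. The 2 called higher were the 18-probe run chr1:208090286-208091834 and the 17-probe run chr17:39333171-39335504, and the 2 called lower were the 31-probe run chr20:46260737-46264714 and the 18-probe run chr7:10909057-10911460.

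**Figure D4:**
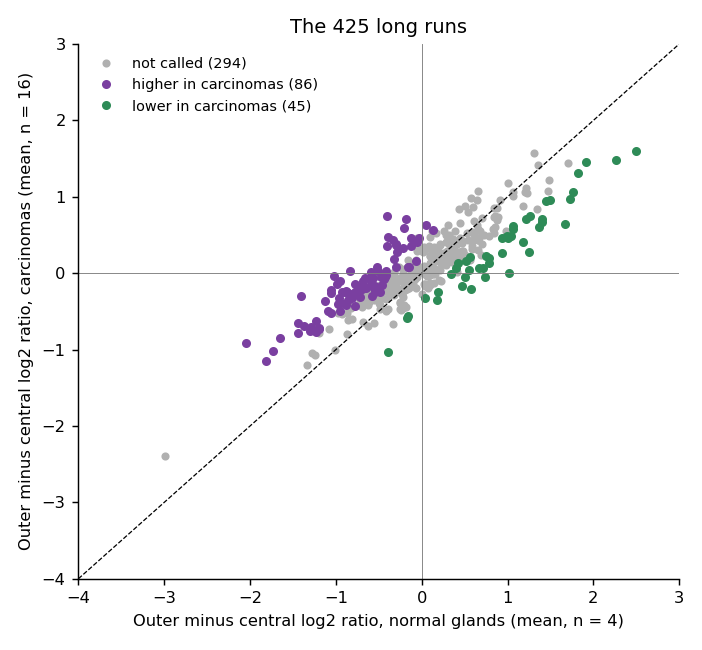
Each point is 1 of the 425 long runs, placed by its mean outer minus central log2 ratio in 4 normal glands (horizontal) and 16 carcinomas (vertical), with the 86 runs called higher and the 45 called lower in carcinomas coloured and the dashed line marking equal values. Most coloured points lie nearer to 0 on the carcinoma axis than on the normal axis, on a log2 scale whose range was narrower in carcinomas.

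The 31-probe run chr20:46260737-46264714 lost signal at 1 end. Its outer minus central difference was 1.17, 0.77, 1.24 and 0.88 in normal glands and ran from -0.30 to 0.20 with a median of 0.04 in carcinomas. The groups did not overlap, and the change was -1.01 (SE 0.10, limma adjusted p = 2.59e-06). Its low-coordinate end was at 2.93 ± 0.59 in normal glands and -0.08 ± 0.30 in carcinomas, while the other end was at -0.70 ± 0.26 and -0.79 ± 0.18. In linear position that first end was at 0.28 in normal glands, so it was a partly methylated end there. With the outer part taken as all probes within 300 bases of an end, the change was -1.60, and after normexp it was -0.44, both still called.

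The 18-probe run chr1:208090286-208091834 gained signal at its ends. Its difference was -0.24, 0.24, -0.46 and -0.28 in normal glands and ran from 0.41 to 1.20 with a median of 0.67 in carcinomas. All 16 carcinomas lay above every normal gland, and the change was 0.90 (SE 0.13, limma adjusted p = 5.40e-05). The low-coordinate end was at -0.92 ± 0.72 in normal glands and 0.71 ± 0.33 in carcinomas, the centre at -0.85 ± 0.20 and -0.51 ± 0.14. This was a change low in the range, from 0.00 to 0.17 on the linear scale at that end. The change was smaller but still called with overlapping probes thinned out (0.37, adjusted p = 0.028), with the outer part within 300 bases of an end (0.56) and after normexp (0.33); within scan day 2 it was not called (0.84, adjusted p = 0.065).

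Of the other large rises, the 47-probe chromosome 12 run named above changed by 1.12 (SE 0.13, limma adjusted p = 6.73e-06), from -2.55, -1.54, -1.97 and -2.11 in normal glands to between -1.25 and -0.67 in carcinomas. In linear position the centre of this run was at 0.57 in normal glands and 0.61 in carcinomas, and the methylated end at 0.57 and 1.03. Loess turned its change to -0.16 and quantile normalization left 0.35. The 17-probe run chr19:35104020-35105379 rose by 0.99 (SE 0.14, limma adjusted p = 5.40e-05), with normal glands from -1.27 to -0.86 and carcinomas from -0.46 to 0.56. Here the groups did not overlap; its change was not called after loess (0.11) or within scan day 2 (0.69). The 26-probe run chr3:163458375-163461665 had the largest rise, 1.15 (SE 0.28, limma adjusted p = 0.00399), and 15 of 16 carcinomas lay above every normal gland. It was not called on the linear scale or within either scan day. The 15-probe run chr7:138723483-138724994 rose by 1.10 (SE 0.31, limma adjusted p = 0.00857) at levels under the array median in all normal glands, and 3 of its 6 outer probes were never above background in the enriched channel there. Raising dim signals to the floor ended that call (0.91, adjusted p = 0.061), as did loess, normexp, the linear scale and each scan day.

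Among the falls, the 15-probe run chr20:5764636-5766619 changed by -1.03 (SE 0.22, limma adjusted p = 0.0014), with normal glands from 1.46 to 1.95 and carcinomas from 0.11 to 1.58. Only 1 carcinoma lay inside the normal range. On the linear scale its end and centre were both higher in carcinomas (low-coordinate end 0.43 and 1.11, centre 0.04 and 0.34) and the change turned to 0.07; thinning gave -1.65, and quantile normalization, loess and scan day 2 ended the call. The 25-probe run chr7:137558916-137561117 changed by -0.97 (SE 0.14, limma adjusted p = 7.06e-05), from 1.09, 1.20, 1.44 and 1.27 to a carcinoma median of 0.21. No carcinoma reached the normal range, and the centre went from -0.12 ± 0.24 to 0.47 ± 0.48. It was not called on the linear scale (-0.01), after loess (-0.22) or within scan day 2 (-1.12, adjusted p = 0.051), and it was -0.46 with the outer 2 probes at each end. The 22-probe chromosome 1 run with the most positive difference changed by -0.90 (SE 0.17, limma adjusted p = 0.000547), but by 0.11 on the linear scale (adjusted p = 0.0296), where its methylated end was at 0.46 and 0.61. It was not called after quantile normalization (-0.12), after loess (-0.19) or within scan day 2 (-0.81).

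The 21-probe run chr17:745660-748320 fell along its whole length. Its outer minus central difference changed by -0.79 (SE 0.15, limma adjusted p = 0.000646), a change that loess turned to 0.03, that was -0.46 after normexp and that was not called within 300 bases of the ends (-0.15) or within scan day 2 (-0.49). Its run mean was 2.15, 1.07, 1.30 and 1.70 in normal glands and ran from -0.98 to 0.31 with a median of -0.17 in carcinomas. Every carcinoma lay below every normal gland, and the run mean changed by -1.73 (SE 0.19, limma adjusted p = 2.83e-06). The first end fell most, from 2.59 ± 0.92 to -0.38 ± 0.49.

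By level in normal glands the long runs split into 370 under 0.2 on the linear scale in all 4 glands, 27 over 0.5 in all 4, and 28 in between. The 27 high runs had ends slightly below the centre, with mean outer and central log2 levels of 4.51 and 4.72 in normal glands and 2.62 and 2.74 in carcinomas. All 27 run means were called lower in carcinomas on the log2 scale (median change -1.99). The same was true of the high runs of other lengths, with 118 of 118 called lower among runs of 9 to 14 probes, 447 of 447 among those of 6 to 8 and 667 of 667 among those of 3 to 5, and median changes of -1.99, -1.96 and -1.95. The mean linear position of such runs lies near 1 in both groups by construction, because they set the upper level of each array. Among the 27, 25 stayed over 0.5 in all 16 carcinomas and 1 was under 0.2 in any. The 28 runs in between had lower ends than centre, by -0.44 ± 0.14 in normal glands and -0.24 ± 0.04 in carcinomas. The 370 low runs had a mean difference of 0.03 ± 0.05 in normal glands and 0.11 ± 0.05 in carcinomas, and 73 rises and 43 falls of the difference were among them.

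The run mean was called higher in carcinomas in 39 long runs (9.18%, beside 11.7% of all 13471 runs tested) and lower in 87 (20.5%, beside 23.7%), by limma at adjusted p under 0.05. The median change was 0.04, beside 0.02 over all runs tested. The linear scale turned this balance around, to 91 higher and 12 lower (17.2% and 4.28% of all tested). Without normal gland 4, 19 were called higher (8.40% of all tested), and within scan day 3, 3 were (2.14% of all tested). Over the 6 scalings, 13 runs were called higher and 4 lower every time, beside 1.64% and 0.393% of all runs tested.

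Those 4 falls were found on chromosomes 7, 10 and 17. The 15-probe run chr7:67041591-67042838 had the largest fall of any long run. Its run mean was 4.47, 2.57, 2.93 and 3.89 in normal glands and ran from -0.41 to 1.29 with a median of 0.22 in carcinomas. No value overlapped, and the change was -3.18 (SE 0.29, limma adjusted p = 2.28e-07). Low-coordinate end, centre and high-coordinate end fell alike, from 3.40, 3.40 and 3.71 to 0.41, 0.22 and 0.35. The outer minus central difference of this run changed by 0.01 (SE 0.12, limma adjusted p = 0.978). Its linear position went from 0.432 to 0.0937; after loess the change was -0.62 and still called. The 18-probe run chr7:72742496-72744259 fell from 1.10 ± 0.59 to -0.49 ± 0.40 and the 15-probe run chr10:46292086-46293451 from 0.24 ± 0.44 to -0.57 ± 0.26. Both of these means in normal glands were already far under the upper level there (4.69). The fourth was the chromosome 17 run described above, with linear positions of 0.07, 0.09, 0.07 and 0.12 in normal glands 1 to 4.

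The next largest falls, all on chromosome 7, were of the size of the shift of the upper level. The runs chr7:10588580-10590099, chr7:127371003-127372253 and chr7:118454842-118455993 changed by -2.20, -2.18 and -2.17 (limma adjusted p from 1.99e-05 to 7.80e-05), and every carcinoma lay below every normal gland. Their linear positions were 1.62 and 1.41, 1.09 and 0.98, and 1.35 and 1.19, and loess turned the changes to 0.19, 0.18 and 0.06. None of these 3 calls held after quantile normalization. The 18-probe run chr7:10909057-10911460 also fell by 2.20 on the log2 scale, and its high-coordinate end fell further, from 0.57 to 0.29 in linear position while its centre was at 0.69 and 0.63. Its outer minus central difference was -0.09, -0.30, -0.24 and -0.05 in normal glands and from -0.89 to -0.36 in carcinomas, without overlap (change -0.42, SE 0.10, limma adjusted p = 0.00256). Its run mean was not called on the linear scale or after loess.

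The largest rise of a run mean was in the 15-probe run chr8:104731482-104732599. Its values were -0.03, 0.09, -0.03 and -0.57 in normal glands and ran from 0.50 to 3.12 with a median of 1.18 in carcinomas. All 16 carcinomas lay above every normal gland, and the change was 1.44 (SE 0.31, limma adjusted p = 0.000852); it was 0.71 after loess, 0.78 after normexp and not called within scan day 3 (1.65, adjusted p = 0.065). Both ends and the centre rose, from 0.47, 0.20 and -0.45 to 1.72, 1.48 and 1.12. Its linear position went from 0.01 to 0.33, short of the upper level in most carcinomas.

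In the 19-probe run chr5:137783423-137785805 normal values were 0.15, -0.38, -0.15 and -0.59 and carcinomas ran from -0.07 to 2.61, with 15 of 16 above every normal gland (change 1.22, SE 0.30, limma adjusted p = 0.00304). In the 15-probe run chr10:85013691-85015520 normal values were 0.00, -0.18, -0.45 and -0.73 and carcinomas ran from -0.41 to 2.08, again with 15 above (1.26, SE 0.32, limma adjusted p = 0.0034). Both of these were among the 13 called higher under all 6 scalings, though neither was called within scan day 3. The 15-probe run chr5:37284778-37286175 (1.30, limma adjusted p = 0.019) and the 16-probe run chr10:72805824-72807578 (1.24, limma adjusted p = 0.0273) were less firm. The first was not called without normal gland 3 (adjusted p = 0.051) or 4 (0.064), and the second without normal gland 2, 3 or 4 (0.063, 0.058 and 0.16). Its value without normal gland 4 was 0.86, and that gland was its lowest normal array at -0.60. Carcinoma 8 had the highest value in 4 of these 5 runs, and carcinoma 3 the lowest in 4.

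The longest of the 13, at 46 probes, was chr14:83215953-83221176. Its mean rose from 0.39 ± 0.32 to 1.31 ± 0.53 (change 0.92, SE 0.27, limma adjusted p = 0.00992), and the ends, below the centre in normal glands (-0.96), moved closer to it in carcinomas (-0.32). The 16-probe run chr2:102697662-102698854 rose from 0.48 ± 0.33 to 1.66 ± 0.72 and from 0.03 to 0.47 in linear position. The 18-probe run chr5:136390983-136393146 rose from 0.74 ± 0.40 to 1.74 ± 0.49 and from 0.04 to 0.46. In these 2 the ends were above the centre in normal glands (0.93 and 1.21) and less so in carcinomas (0.26 and 0.71). The runs of this paragraph were chosen after their values were seen.

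The share of long runs over 0.5 in linear position was 6.88% ± 0.23 in normal glands and 15.9% ± 6.60 in carcinomas, from 7.53% to 28.2%. Every carcinoma lay above every normal gland. Within scan day 2 the means were 6.82% and 19.1%, and within scan day 3 6.94% and 15.4%. The 2 carcinomas of scan day 1, when no normal gland was scanned, had a mean of 8.82%. A position of 0.5 stands for a lower log2 value in carcinomas, because their upper level was 2.72 against 4.69 in normal glands. A run can therefore pass 0.5 there without a higher log2 ratio. On the log2 scale the mean of the long runs was 0.51 ± 0.17 in normal glands and 0.43 ± 0.15 in carcinomas. The part of the narrower range in the higher share was not tested. The shares were 6.08% and 12.0% in runs of 9 to 14 probes, 11.7% and 16.8% in runs of 6 to 8, and 12.0% and 18.6% in runs of 3 to 5. The long runs exceeded those of 9 to 14 probes on all 20 arrays, by 0.800 ± 0.059 percentage points in normal glands and 3.98 ± 2.54 in carcinomas. In normal glands this excess did not extend to the longest runs. Those of 20 or more probes (138 runs) had a share of 2.72% ± 0.69 there, below that of runs of 9 to 14 probes.

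Among the 370 long runs low in every normal gland, carcinomas had a median of 3.65% over 0.5, from 0 of 370 in carcinomas 2 and 3 to 70 of 370 (18.9%) in carcinoma 8. These gains are counted on the linear scale, so the lower log2 value of 0.5 in carcinomas applies to them too. The carcinomas fell far apart: 5 had over 10% of these runs past 0.5 (carcinomas 6, 8, 11, 15 and 16) and 8 had under 3%. Carcinoma 8, with the most gains, is 1 of the 2 whose sample codes differed, and the gains were not counted without it. In all, 92 of the 370 (24.9%) passed 0.5 in at least 1 carcinoma, beside 16.1% of runs of 9 to 14 probes, 13.9% of 6 to 8 and 16.4% of 3 to 5. Long runs had the higher share against runs of 9 to 14 probes in 8 of 16 carcinomas, among them the 5 with over 10%. The share passing in 8 or more carcinomas was 2.70% of long runs and 2.98% of runs of 9 to 14 probes, while 63 of 370 and 200 of 1915 passed in 1 to 4 carcinomas, and 5.14% and 2.72% in 5 to 7. Runs of 6 to 8 and of 3 to 5 probes had 2.04% and 2.26% past 0.5 in 8 or more carcinomas.

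**Figure D5:**
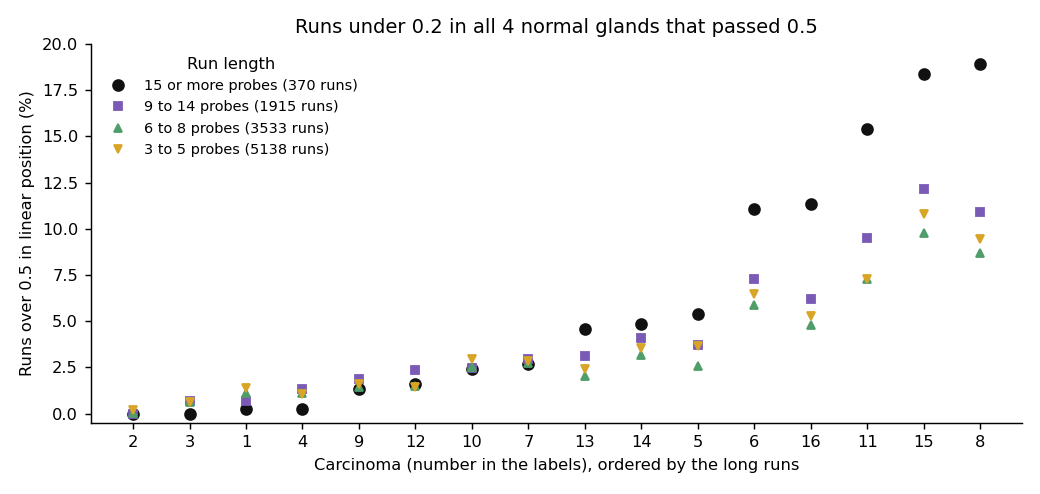
For each carcinoma (horizontal, ordered by the long runs), the percent of runs under 0.2 in linear position in all 4 normal glands that passed 0.5 there, by run length. Long runs (black circles) reach from 0 to 18.9% and lie above the shorter runs in the 5 carcinomas with over 10%.

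The 10 long runs that passed 0.5 in 8 or more carcinomas lay on chromosomes 3 (3 runs), 8 (2), 10 (2), 5, 11 and 15. The most frequent, in 13 of 16, was the 15-probe run chr15:47701964-47703658, with linear positions from 0.05 to 0.18 in normal glands and a carcinoma median of 0.63. Its log2 mean was 1.78 ± 0.80 in normal glands and 2.03 ± 0.64 in carcinomas, a change that was not called (0.25, SE 0.35, limma adjusted p = 0.617). The run chr8:59106663-59108026 passed 0.5 in 11 carcinomas, again with overlapping log2 means of 1.81 ± 0.81 and 1.97 ± 0.65. Of the 10, the log2 change was called in chr5:143982312-143984005 (0.88), chr8:74201180-74203328 (1.17) and chr10:72805824-72807578 (1.24). For the other 7 the gain thus rests on the linear scale, whose upper level differs between the groups.

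Summed over the carcinomas, gains of the ends alone and of the centre alone were about equal in number, but single carcinomas differed. Over 352 runs low in both parts in every normal gland and 16 carcinomas, or 5632 pairs of run and carcinoma, both parts passed 0.5 in 215, the outer part alone in 105 and the central part alone in 103. Outer-only gains outnumbered central-only gains in 9 carcinomas and central-only gains were more frequent in 5 (carcinomas 5, 6, 11, 15 and 16). Carcinoma 15 had 7 outer-only and 17 central-only gains, while carcinoma 8 had 13 and 6. Runs of 9 to 14 probes differed from this: of 30096 pairs both parts passed in 862, the outer part alone in 195 and the central part alone in 424, and central-only gains were more frequent in 15 of 16 carcinomas. The difference between the classes was described and not tested.

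The 3 runs with the most probes were unlike one another. The 63-probe run chr10:109652173-109658537, the longest at 6365 bases with 51 usable probes, had a low mean, -0.72 ± 0.14 in normal glands and -0.53 ± 0.20 in carcinomas, and no change was called in its run mean (limma adjusted p = 0.222) or in its difference (limma adjusted p = 0.338). Probe means along it ranged from -2.54 to 2.12 in normal glands, so single probes stood well above the array median. In normal glands its ends lay 0.43 above its centre; 12 of its central probes were never above background in the enriched channel there. The 48-probe run chr19:15747712-15753035 had a first end at 2.02 ± 0.51 in normal glands and -0.07 ± 0.62 in carcinomas, and its run mean fell from 0.53 ± 0.23 to -0.35 ± 0.30 (change -0.89, SE 0.16, limma adjusted p = 0.000154). The change of its outer minus central difference reversed in sign on the linear scale (0.0060) and with the outer 2 probes at each end (0.27). The third was the 47-probe chromosome 12 run. Thus the longest runs included 1 with a low mean and single higher probes, 1 that lost signal both at its first end and in its run mean, and 1 that was methylated over most of its length in both tissues.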

How the data were processed

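The 20 scanner files hold 2-colour intensity values per probe, which the authors made with Agilent Feature Extraction 10.7.3.1, per the submitters' processing notes. The deposited series table holds log2 ratios that equal the scanner's own log10 ratios, rescaled, within 7.94e-07, with array medians from -0.48 to -0.08, so these values were not centred by the authors. The dye assignment is per the labels. Here log2 of processed Cy5 over processed Cy3 was computed from the deposited intensity columns, without loess, and the median of each array removed. This ratio equals the scanner's own within 0.001 log2 units except in 1.17% of values (0.370% of those kept), by up to 2.88, all with Cy5 not well above background and the scanner's ratio at 0. Of 93024 probes, 91897 on placed chromosomes were used, 187 values marked as outliers were set missing, and 90491 probes entered the runs' means, those whose input passed the scanner's background test on 10 or more arrays. The number of arrays limits the precision.

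Runs were built from probe starts (gap at most 500 bases). Run parts were means of kept probes. Tests used limma 3.58.1 in R 4.3.3 (lmFit and eBayes, group means, all 20 arrays), with Benjamini-Hochberg adjustment over all 2637 runs of at least 9 probes, or all 13471 of at least 3 for the run mean. The linear scale was set per array from the density modes of the log2 run means (all runs, and the top 15%). Modes and values were then unlogged to give the position. Named runs were those with the 5 largest called rises and falls of the difference and of the run mean, the 3 largest called differences of each sign in normal glands, and the 3 with the most probes. Other runs named, as examples of 1 methylated end, as called under all 6 scalings or as past 0.5 in 8 or more carcinomas, were chosen after their values were seen. The members and lists were chosen with earlier results of these data known. On simulated data, changes of 0.5, 1, 1.5 and 2 log2 units in the outer minus central difference were recovered in 78%, 94%, 100% and 100% of 50 runs each, and in the run mean in 22%, 80%, 92% and 96%, with 10 of 2437 and 11 of 13271 unchanged runs called. The simulated noise was independent between runs and arrays, with 1 SD per run for both groups and no difference of range between arrays. The simulation therefore cannot show how often the difference of range between the groups leads to a call. Alternatives changed the scaling, background, filters, gap, outer part, minimum length, arrays and blocks. Coordinates are 1-based positions of build rn4 as the files give them.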

Additional observations from a re-analysis of the deposited data

Results flagged for a closer look

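In sets of 4 normal glands, a gland was marked when its gap to the nearest other gland took up most of the range of the 4 (past the critical value of Dixon's ratio). This marked 11 of 122 sets. Chance marks about 5% of independent sets, but these sets share the same 4 arrays and overlapping probes. The 2 figures therefore cannot show an excess over chance. Normal gland 1 was the gland that stood apart in 10 of the 11. It had the highest mean level of runs of 6 to 8 probes (0.60), of runs of 3 to 5 probes (0.73) and of the central part of the long runs (0.80). In single long runs it stood apart in the run mean of chr7:138723483-138724994 (-0.96), in the central level (0.24) and run mean (0.50) of chr7:137558916-137561117, in the outer level of chr16:69406502-69409834 (2.97), and in the outer level (-0.47), central level (3.28) and run mean (2.10) of chr16:20009469-20011670. Normal gland 4 stood apart in the outer level of chr8:104731482-104732599 (-0.063). The upper level of normal gland 1 (5.87) was also above that of the other 3 glands, and its part in these values was not tested.

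A second set was marked because the outer minus central difference itself differed between carcinomas and normal glands by limma. The 5 largest rises among the long runs were 1.15 on chromosome 3, 1.12 on chromosome 12, 1.10 on chromosome 7, 0.99 on chromosome 19 and 0.90 on chromosome 1. The 5 largest falls were -1.03 and -1.01 on chromosome 20, -0.97 on chromosome 7, -0.90 on chromosome 1 and -0.79 on chromosome 17.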

How the results depend on the processing

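Counts of long runs, with 86 higher and 45 lower for the change of the outer minus central difference and 39 and 87 for the run mean, moved as follows. Shares of all runs tested follow in parentheses where not given above. Quantile normalization gave 43 and 20, and 63 higher run means (9.05%); loess 36 and 19, and 94 lower in normal glands (25.7%); division by the median absolute deviation 26 lower (3.41%), and 62 higher run means (11.2%); normexp 41 higher, and 19 higher run means (3.87%). The linear scale gave 39 and 11, 19 and 21 in normal glands, and 91 and 12 run means. An adjusted p under 0.01 left 48 and 25 (16.6% and 2.92%), and 15 higher run means (4.68%); array weights gave 80 higher run means (18.8%). Scan day 2 alone gave 1 and 1, and 50 lower run means (16.7%); scan day 3 alone 37 and 14, and 3 higher run means. A gap of 300 bases left 282 long runs, with 53 higher (26.6%), 90 lower in normal glands (41.8%), 113 higher in carcinomas (33.9%), 54 lower run means (24.0%) and a share over 0.5 of 8.95% in normal glands. Runs of 20 or more probes had mean differences of 0.10 and 0.12 and a share of 2.72% in normal glands, and runs of 12 or more -0.11, 0.029 and 6.21%. On the linear scale the mean difference in carcinomas was 0.0030 and the outermost minus the 5th probe in normal glands -0.014.

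Replicate numbers did not pair the samples (correlations of deviations 0.09, -0.04, 0.04 and -0.14). The replicate block gave 73 and 31 changes of the difference (23.6% and 4.59%) and 16 and 61 run means (7.87% and 19.7%). Leaving out each array gave 51 to 96 higher and 25 to 47 lower, 117 to 132 and 125 to 147 in normal glands, 174 to 179 and 130 to 140 in carcinomas, and 19 to 56 higher and 71 to 89 lower run means; the lowest 51, 25 and 71 came without normal gland 1. Without carcinomas 7 and 8, an alternative added after seeing the data, counts were 88 and 45, and 58 and 85 for run means. Slide as a random block had consensus correlations of 0.05 (difference) and -0.11 (run mean).

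Reversed values were, for the difference, loess -0.16 (chr12:46721844-46727464) and 0.027 (chr17:745660-748320); linear scale 0.074 (chr20:5764636-5766619), 0.11 (chr1:80893805-80896537), 0.015 (chr10:109652173-109658537) and 0.0060 (chr19:15747712-15753035); and for that last run 0.27 with the replicate block and 0.27 with the outer 2 probes. For the run mean, loess gave 0.19, 0.18 and 0.064 on chromosome 7. The causes were not tested. The filter, floor and thinning alternatives left every count above within 1.5 times. Probes never above background in the enriched channel have no firm level below it.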
